A study of Mus musculus with 24 samples.

Results

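Of the 17301 genes with values in sorted myeloid cells of mouse colon and colon tumours, 9 complement genes were taken by their Ensembl identifiers and symbols, and all 9 had a value in every library and passed the filter on low values. They were the 3 chains of C1q (C1qa, C1qb and C1qc), the components C3 and C4b, the alternative pathway proteins factor B (Cfb) and properdin (Cfp), and the receptors C3ar1 and C5ar1. Their symbols set the choice and no measured value was part of the rule, but the choice was made with earlier results of these data known.

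Complement is a cascade of plasma and locally made proteins that tags surfaces for uptake, releases small peptides that attract and activate leucocytes, and ends in a pore-forming complex. The classical pathway starts when C1q binds antibody or altered surfaces, and its proteases cleave C4 and then C3. The alternative pathway amplifies C3 cleavage through factor B and is stabilised by properdin, and the released peptides C3a and C5a act on the receptors C3ar1 and C5ar1. Most plasma complement is made in the liver, whereas C1q is made mainly by macrophages and related myeloid cells.

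RNA was sequenced from 4 populations of 2 tissues with 3 libraries each, 24 in all, to compare the same cell types between normal and tumour-bearing colon. Lamina propria (LP) came from C57BL/6J mice, which the labels call healthy, whereas the study's methods describe treatment with dextran sodium sulphate (DSS), an agent that injures the colon, for control mice as well, so the treatment of these LP donors is not settled here. Tumours came from DSS-treated Apc Min/+ mice, which carry a germline mutation of the tumour suppressor gene Apc in all their cells. The mice were of both sexes and 3 to 4 months old, and each library held pooled tissue of 13 to 15 animals. A figure legend of the study describes the sorts as 3 independent experiments. The populations were F4/80hi MHCIIhi macrophages, F4/80hi MHCIIlow macrophages, Ly6Chi MHCII- monocytes and Ly6Ghi F4/80- neutrophils, all CD11b+. LP and tumours were digested with different protocols, so the tissue and the isolation cannot be told apart in any comparison of tumour with LP. In bulk libraries of this kind, fewer cells of a type and less RNA per cell cannot be told apart either.

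The libraries held 12.8 M to 41.7 M reads on genes, with a median of 26.4 M. Levels are given as RPKM, that is, reads scaled by the length of the gene and the size of the library, which may be compared between genes. The size behind the deposited values was not the read count. It was 0.466 to 0.483 times the reads on genes in tumour neutrophils and 0.630 to 0.682 times in LP neutrophils. In monocytes it was 0.981 to 1.21 times and in macrophages 1.13 to 1.51 times. Comparisons of levels with neutrophils rest on this scaling. The genes behind the sort followed the labels only in part. Ly6g was at 42.5 to 91.8 RPKM in LP neutrophils and at 179 to 415 RPKM in tumour neutrophils. It did not exceed 1.61 RPKM elsewhere. Ly6c2 did not exceed 0.539 RPKM in macrophages but did not separate monocytes from neutrophils. It was at 43.2 to 87.0 RPKM in LP monocytes and 42.6 to 59.0 RPKM in LP neutrophils. In tumours Ly6c2 was at 53.6 to 72.1 RPKM in monocytes and 54.6 to 131 RPKM in neutrophils. Adgre1, the gene of the sorted macrophage marker, was at 247 to 470 RPKM in macrophages and at 25.5 to 64.7 RPKM in neutrophils. Cd74, the MHCII invariant chain, was at 18424 to 20195 RPKM in LP MHCIIhi macrophages and at 644 to 2134 RPKM in LP MHCIIlow macrophages. In tumours it was at 7297 to 19473 RPKM in MHCIIhi and 1357 to 5203 RPKM in MHCIIlow macrophages, a narrower gap without overlap. The summed level of 10 fibroblast genes was 9.74 to 86.6 RPKM in the LP libraries and 0.400 to 1.86 RPKM in the tumour libraries, while that of 10 epithelial genes was 7.53 to 213 RPKM in LP and 9.89 to 348 RPKM in tumours. In neutrophils alone the epithelial sum was 17.0 to 75.6 RPKM in LP and 175 to 347 RPKM in tumours. There 9 B and plasma cell genes summed to 606 to 1657 RPKM in LP and 372 to 472 RPKM in tumours. For 8 dendritic cell genes the sums were 93.3 to 187 RPKM and 2.82 to 21.0 RPKM. The part of these cells in the neutrophil results was not tested. The summed level of 10 neutrophil genes was 31.0 to 86.3 RPKM in LP MHCIIlow macrophages and 256 to 680 RPKM in tumour MHCIIlow macrophages, against 12627 to 36537 RPKM in the neutrophils.

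All 9 genes are protein-coding genes on the minus strand of the GRCm38 genome. C1qb (chr4:136880129-136886187), C1qc (chr4:136889804-136893065) and C1qa (chr4:136895917-136898803) lie side by side within 18675 bases. C4b (chr17:34728380-34743882) and Cfb (chr17:34856374-34862518) lie 112491 bases apart, and C3 (chr17:57203970-57228136) lies further along the same chromosome. The receptor genes are C3ar1 (chr6:122847138-122856161) and C5ar1 (chr7:16246743-16259540), and Cfp is X-linked (chrX:20925454-20931555). C4b shared 33.95% of its 51-base windows (1 read length) with its neighbour C4a, and Cfb shared 79.5% of its exon bases with the read-through gene model Gm20547 on the same strand, so their reads may have been divided or lost in counting. The other 7 members shared no such window with another gene.

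The 250 bases before the start of transcription are shown for 3 members with different distributions over the cell types, C1qb (macrophages), C3 (neutrophils and monocytes) and C3ar1 (macrophages and monocytes). They are RefSeq sequences of build GRCm38.p6, written 5′ to 3′ on the minus strand, and capitals mark a match to 1 of 6 motifs searched on both strands.
C1qb (chr4:136886201-136886450): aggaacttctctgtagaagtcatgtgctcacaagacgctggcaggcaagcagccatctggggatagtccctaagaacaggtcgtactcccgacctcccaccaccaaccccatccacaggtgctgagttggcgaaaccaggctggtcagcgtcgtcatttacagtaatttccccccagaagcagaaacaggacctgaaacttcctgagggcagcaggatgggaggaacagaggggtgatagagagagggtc
C3 (chr17:57228137-57228386): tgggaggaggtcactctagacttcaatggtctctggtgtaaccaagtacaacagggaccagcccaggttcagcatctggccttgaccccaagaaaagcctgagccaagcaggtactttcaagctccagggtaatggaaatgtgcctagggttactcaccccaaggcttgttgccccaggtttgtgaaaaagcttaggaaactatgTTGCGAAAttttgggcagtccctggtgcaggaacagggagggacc
C3ar1 (chr6:122856158-122856407): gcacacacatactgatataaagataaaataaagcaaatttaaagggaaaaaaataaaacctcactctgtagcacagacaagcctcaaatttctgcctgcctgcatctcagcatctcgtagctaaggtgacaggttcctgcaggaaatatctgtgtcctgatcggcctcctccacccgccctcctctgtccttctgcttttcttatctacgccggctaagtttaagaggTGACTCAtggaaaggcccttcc

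In C3 the capitals begin 45 bases before the start and match the C/EBP motif TTNNGCAA on the opposite strand, which 9.56% of 32851 mouse promoters of the same length held. In C3ar1 they begin 22 bases before the start and match the AP-1 motif TGANTCA, held by 6.75% of promoters. C1qb held no match, and C1qc held 1 match to the PU.1 motif GAGGAAG, 194 bases before its start on the opposite strand, a motif present in 10.6% of promoters. C5ar1 and Cfp held no match to any of the motifs, which also included NF-kappaB (GGGANTTCC, in 1.43% of promoters), STAT (TTCNNNGAA, in 7.02%) and MAF (TGCTGAC, in 3.81%). Promoter sequences were available for 6 of the 9 members, so C1qa, C4b and Cfb were not searched. A match describes letters and is no evidence of binding.

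The members fell into different distributions over the 8 groups. The C1q chains stood far higher in macrophages than in the other cells, C5ar1 stood highest in neutrophils, C3 in neutrophils and monocytes, and C3ar1 in macrophages and monocytes, while Cfp varied little. C4b stood highest in LP MHCIIlow macrophages, and Cfb was low everywhere.

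**Figure D1:**
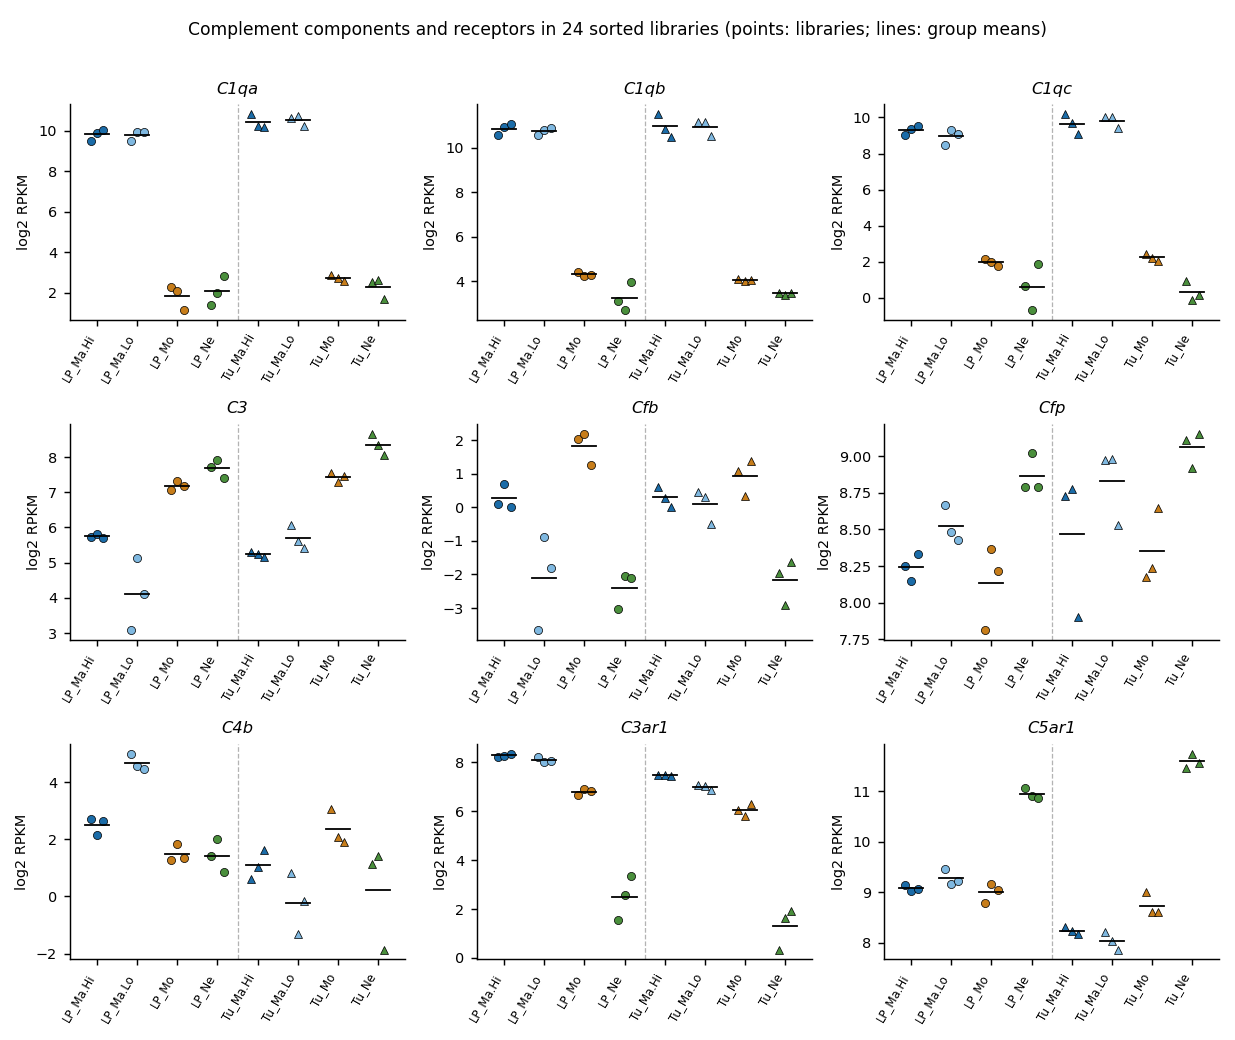
Level of each of the 9 genes (log2 RPKM) in the 24 libraries, with 1 point per library (circles LP, triangles tumour) and lines at group means. On the axis LP and Tu are the tissues, Ma.Hi and Ma.Lo the MHCIIhi and MHCIIlow macrophages, Mo monocytes and Ne neutrophils. C1qa, C1qb and C1qc stand at 353 to 2915 RPKM in all macrophage libraries and at 0.621 to 21.5 RPKM in monocytes and neutrophils, and C4b stands at 21.8 to 31.9 RPKM in the 3 LP MHCIIlow macrophage libraries.

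Between tumour and LP, 5 of the 9 genes were called in MHCIIlow macrophages (2 higher and 3 lower in tumours), where 23.3% of the 12878 genes tested were called. In MHCIIhi macrophages 1 of the 9 was called, lower in tumours, against 19.5% of all genes, and in neutrophils 2 of the 9 were called, 1 in each direction, against 32.2%. In monocytes limma called 0 of the 9 against 9.29% of all genes, with 2 members at an unadjusted p under 0.05, and voom on the recovered reads called 1. The median member difference was 0.03 in MHCIIhi macrophages, 0.30 in MHCIIlow macrophages, 0.22 in monocytes and 0.20 in neutrophils (log2), beside all-gene medians of 0.06 in MHCIIlow macrophages and -0.12 in neutrophils and of no difference in the other populations.

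**Figure D2:**
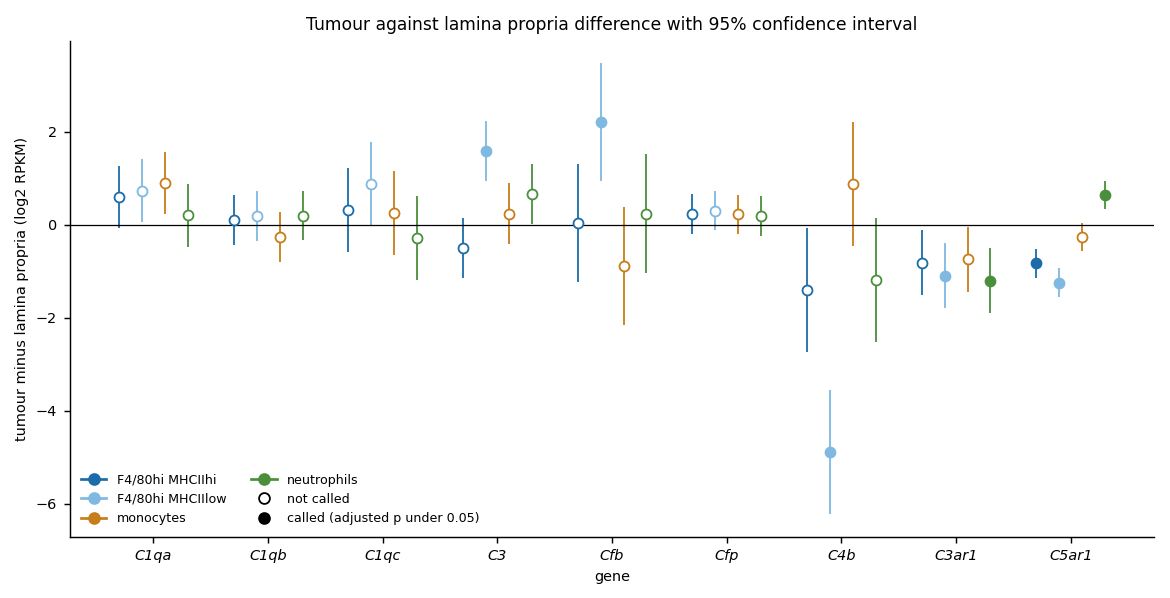
Tumour minus LP difference in log2 RPKM for each gene in the 4 populations, with 95% confidence intervals (limma), where filled points mark an adjusted p under 0.05. C4b in MHCIIlow macrophages (-4.89) and Cfb in the same cells (2.20) lie furthest from 0, whereas no monocyte point is filled.

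The C1q chains form the recognition subunit of the classical pathway. In LP, C1qa stood at 727, 956 and 1059 RPKM in the MHCIIhi macrophage libraries and at 711, 994 and 995 RPKM in the MHCIIlow libraries, against 4.82, 4.20 and 2.23 RPKM in monocytes. In tumours it stood at 1797, 1194 and 1172 RPKM in MHCIIhi and 1587, 1673 and 1215 RPKM in MHCIIlow macrophages, against 7.42, 6.68 and 5.95 RPKM in monocytes. Neutrophils ran from 2.67 to 7.04 RPKM. No macrophage library approached a monocyte or neutrophil library, and every tumour macrophage library stood above every LP macrophage library.

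C1qb was the most abundant member in LP MHCIIhi macrophages, at 1524, 1961 and 2127 RPKM, and stood at 1542, 1779 and 1873 RPKM in LP MHCIIlow macrophages. In tumours it was at 2915, 1863 and 1451 RPKM in MHCIIhi and 2259, 2283 and 1471 RPKM in MHCIIlow macrophages, so that tumour and LP overlapped. C1qc ran from 353 to 747 RPKM in LP macrophages and from 533 to 1161 RPKM in tumour macrophages. Together the 3 genes took 0.404% to 0.859% of all gene reads in macrophages, 0.00334% to 0.00447% in monocytes and 0.000843% to 0.00200% in neutrophils.

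Against monocytes of the same tissue, macrophages held more C1qa by 7.98 ± 0.28 in LP and 7.74 ± 0.28 in tumours (log2 difference ± SE, adjusted p = 6.92e-14 and 7.48e-14, limma), more C1qb by 6.49 ± 0.22 and 6.91 ± 0.22, and more C1qc by 7.16 ± 0.37 and 7.50 ± 0.37. In fold terms C1qa was 252 times higher in LP and 213 times higher in tumours. These were among 7 of 9 members called in LP, where 29.5% of all genes were called, and 7 of 9 in tumours, against 38.3%. The summed C1q level of monocytes was 0.840% of the macrophage level in LP and 0.640% in tumours, and that of neutrophils 0.506% and 0.395%. By comparison the summed level of 10 macrophage genes in monocytes was 16.6% and 11.5% of that in macrophages, and in neutrophils 9.46% and 5.31%. Apoe made up most of that sum in macrophages, with 7539 of 9921 RPKM in LP and 12389 of 14898 RPKM in tumours. The single genes differed widely, in LP monocytes from 1.63% (Cd163) to 197% (Fcgr1) of the macrophage level.

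Between tumour and LP no C1q chain was called in macrophages. The C1qa difference was 0.59 in MHCIIhi (95% confidence interval -0.08 to 1.26) and 0.73 in MHCIIlow macrophages (0.06 to 1.41), with adjusted p of 0.228 and 0.112. For C1qb the differences were 0.10 (-0.43 to 0.64) and 0.19 (-0.35 to 0.72), and for C1qc 0.32 (-0.59 to 1.22) and 0.88 (-0.03 to 1.78). The C1qa call depended on the method, since voom on the recovered reads gave an adjusted p of 0.0127 in MHCIIhi and 0.0023 in MHCIIlow macrophages, and log2(RPKM + 1) gave 0.0464 in MHCIIlow macrophages. For C1qc in MHCIIlow macrophages these gave 0.00475 and 0.0375.

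The chains did not keep 1 ratio. C1qb was 2.01 to 2.10 times C1qa in LP MHCIIhi macrophages and 1.79 to 2.17 times in LP MHCIIlow macrophages, against 1.24 to 1.62 times and 1.21 to 1.42 times in the tumour counterparts. All 6 tumour macrophage libraries lay below all 6 LP macrophage libraries, a pattern noticed after the values were seen and given here with no test. In monocytes the ratio was 4.45 to 8.62 in LP and 2.29 to 2.78 in tumours, on 84 to 231 C1qa reads per library. Across the 12 macrophage libraries, which share the 2 tissues, Pearson's r was 0.90 between C1qa and C1qc, 0.81 between C1qb and C1qc and 0.71 between C1qa and C1qb.

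**Figure D3:**
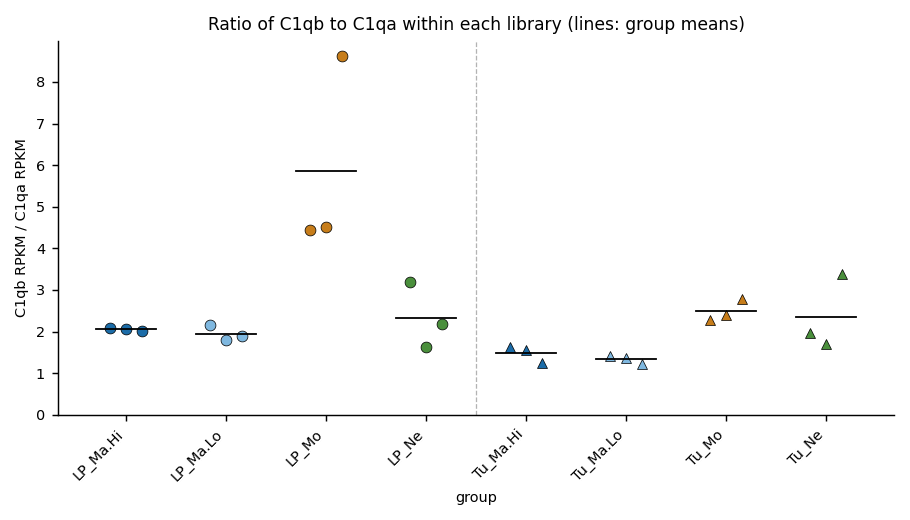
Ratio of C1qb to C1qa RPKM in each of the 24 libraries (circles LP, triangles tumour), with lines at group means and groups named as in the plot of levels. The LP macrophage libraries (Ma.Hi and Ma.Lo) lie between 1.79 and 2.17 and the tumour macrophage libraries between 1.21 and 1.62.

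Of the C1q chains, C1qb and C1qc were lower in neutrophils than in monocytes of LP, whereas C1qa was not called in LP (means of 4.57 and 3.75 RPKM, adjusted p = 0.538) or in tumours (5.04 and 6.68 RPKM, 0.238). In LP neutrophils C1qb was at 8.51, 6.50 and 15.4 RPKM, below all LP monocyte libraries at 21.5, 19.0 and 19.2 RPKM, a difference of -1.07 (adjusted p = 0.00159) that voom did not call (adjusted p = 0.0931). C1qc was lower in neutrophils than monocytes in LP (-1.38, adjusted p = 0.0108) and in tumours (-1.93, adjusted p = 0.000747). The LP difference was no longer called without LP neutrophil library IV (-0.74, adjusted p = 0.105) or with only the libraries compared (0.122). It was -2.00 without library V. Voom called neither the LP nor the tumour difference (adjusted p = 0.256 and 0.173). In tumours the C1qb difference was -0.60 (adjusted p = 0.0507, and 0.0434 with the donor number as a random block).

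C3 is the component on which all complement pathways converge. It was at 212, 240 and 171 RPKM in LP neutrophils and 402, 323 and 268 RPKM in tumour neutrophils. Monocytes were at 133, 160 and 145 RPKM in LP and 185, 155 and 176 RPKM in tumours. Macrophages of either tissue stood below every monocyte and neutrophil library, by 2.25 ± 0.27 against monocytes in LP and 1.95 ± 0.27 in tumours (log2, adjusted p = 2.54e-06 and 7.33e-06).

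Within the macrophages, C3 was at 53.4, 56.0 and 51.8 RPKM in LP MHCIIhi cells and at 8.56, 35.3 and 17.1 RPKM in LP MHCIIlow cells. In tumours it was at 39.2, 38.1 and 36.1 RPKM in MHCIIhi and at 67.6, 49.0 and 42.8 RPKM in MHCIIlow cells. The LP MHCIIlow libraries were thus the lowest of all and spread the most, with library II lowest.

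In MHCIIlow macrophages C3 was 3.01 times higher in tumours than in LP (log2 1.59 ± 0.31, adjusted p = 0.000754), and the libraries of the 2 tissues did not overlap. In MHCIIhi macrophages the difference was -0.51 ± 0.31 (adjusted p = 0.293), and the 2 tumour effects differed by 2.10 ± 0.44 (adjusted p = 0.0199), the only member called for this difference, against 1.46% of all genes. That call was lost without LP MHCIIhi library IV (adjusted p = 0.0528) or tumour MHCIIhi library VII (0.0509), and C3 lost its tumour against LP call when only the libraries compared entered the model (0.0987). The summed neutrophil genes given above also stood higher in the tumour MHCIIlow libraries than in the LP ones. In MHCIIhi macrophages they likewise stood higher in tumours, at 153 to 221 RPKM against 53.3 to 60.5 RPKM in LP. The part of neutrophil RNA in the C3 result was not tested.

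Among LP macrophages C3 was lower in MHCIIlow than MHCIIhi cells by 1.63 ± 0.31 (adjusted p = 0.00218), a call lost with only the libraries compared (0.125). In neutrophils it was higher than in monocytes in tumours (0.93 ± 0.31, adjusted p = 0.0152) and not called in LP (0.50 ± 0.31, adjusted p = 0.182), but under quantile normalisation these values were -0.26 and -0.39. Without tumour monocyte library II or tumour neutrophil library I the tumour call was lost (adjusted p = 0.0501 and 0.0661). In neutrophils the tumour against LP difference was 0.67 ± 0.31 (adjusted p = 0.109), with no overlap between libraries in RPKM. This lack of overlap rests on the library sizes given above, which differed between LP and tumour neutrophils relative to the reads.

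Factor B, the protease of the alternative pathway convertase, was the least abundant member except in LP monocytes and tumour MHCIIlow macrophages. In these C4b had the lower mean, at 2.83 against 3.67 RPKM and at 1.02 against 1.11 RPKM. Cfb was at 4.08, 4.54 and 2.38 RPKM in LP monocytes and at 2.13, 1.26 and 2.57 RPKM in tumour monocytes. In LP macrophages it was at 1.08, 1.61 and 1.01 RPKM in MHCIIhi cells and at 0.0799, 0.545 and 0.283 RPKM in MHCIIlow cells, the last on 9, 33 and 14 reads. Tumour macrophages ran from 0.712 to 1.53 RPKM and neutrophils from 0.122 to 0.326 RPKM, on 3 to 14 reads.

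Cfb thus stood out as low in LP MHCIIlow macrophages, as C3 did, with library II again lowest. It was higher in tumour than LP MHCIIlow macrophages by 2.20 ± 0.61 (adjusted p = 0.0115) and lower in LP MHCIIlow than LP MHCIIhi macrophages by 2.38 ± 0.61 (adjusted p = 0.0194). Both calls were lost without LP MHCIIlow library II (1.44, adjusted p = 0.0858, and -1.62, adjusted p = 0.118), and without library III the values were 2.82 and -3.00. The second call was also lost without LP MHCIIhi library III or IV (adjusted p = 0.0544 and 0.0890) and with the fixed donor block (-1.70, adjusted p = 0.120). Library II also held the lowest Cd74 of the 3, at 644 RPKM against 2134 and 1505 RPKM, and the part of the sort in these results was not tested.

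Against monocytes Cfb was lower in LP macrophages by 2.74 ± 0.53 (adjusted p = 0.000518), in LP neutrophils by 4.22 ± 0.61 (8.08e-06) and in tumour neutrophils by 3.08 ± 0.61 (0.000224). In tumour macrophages the difference was -0.73 ± 0.53 (adjusted p = 0.294). The macrophage minus monocyte difference of the tumour effect was 2.01 ± 0.75 (adjusted p = 0.104), called without LP MHCIIlow library III (adjusted p = 0.0385) and by voom (0.0116).

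Properdin, the plasma protein that stabilises the alternative convertase, was abundant in every population. It ran from 225 to 330 RPKM in LP monocytes, 284 to 406 RPKM in LP macrophages and 442 to 519 RPKM in LP neutrophils. In tumours the ranges were 289 to 400 RPKM, 239 to 507 RPKM and 484 to 569 RPKM. In order of level no group was separated from the next, and the tumour against LP difference was between 0.20 and 0.30 in all 4 populations, with adjusted p of 0.322 to 0.598. Cfp was higher in neutrophils than monocytes by 0.73 ± 0.21 in LP and 0.71 ± 0.21 in tumours (adjusted p = 0.00509 and 0.00596), but quantile normalisation gave -0.56 and -0.65. Against monocytes, macrophages differed by 0.25 in LP and 0.30 in tumours (adjusted p = 0.315 and 0.204), the latter called without tumour MHCIIhi library VII (0.44, adjusted p = 0.0245), with the fixed donor block (0.45, adjusted p = 0.0257) and under quantile normalisation (0.87, adjusted p = 0.000509).

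C4b, the component cleaved by the classical and lectin pathway proteases, differed most of the 9 genes between tumour and LP in both macrophage subsets. LP MHCIIlow macrophages were at 31.9, 23.8 and 21.8 RPKM and LP MHCIIhi macrophages at 6.59, 4.39 and 6.24 RPKM. Tumour MHCIIlow macrophages were at 1.75, 0.403 and 0.905 RPKM and tumour MHCIIhi macrophages at 1.53, 2.02 and 3.13 RPKM. Tumour monocytes were the highest tumour cells, at 8.32, 4.28 and 3.72 RPKM, above LP monocytes at 2.40, 3.58 and 2.52 RPKM.

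In MHCIIlow macrophages C4b was 29.6 times lower in tumours (log2 -4.89 ± 0.64, adjusted p = 1.16e-05). In MHCIIhi macrophages the difference was -1.41 ± 0.64 (adjusted p = 0.138), called by voom (0.00939) and by log2(RPKM + 1) (0.0268), and in monocytes it was 0.87 ± 0.64 (adjusted p = 0.471). The tumour effect in macrophages was lower than in monocytes by 4.02 ± 0.79 (adjusted p = 0.00219), 1 of 2 members called for this difference against 9.19% of all genes. Between MHCIIlow and MHCIIhi macrophages the effects differed by -3.48 ± 0.91 (adjusted p = 0.0599), called without tumour MHCIIlow library I (-3.99, adjusted p = 0.0417) and with the donor number as a random block (-3.46, adjusted p = 0.0473).

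Among LP macrophages 3 of 9 members were called between MHCIIlow and MHCIIhi cells, against 7.7% of all genes, and C4b was the one that was higher in MHCIIlow cells (2.17 ± 0.64, adjusted p = 0.0418). The C4b call was lost on leaving out any 1 of the 6 libraries (adjusted p = 0.0744 to 0.147) and with the fixed donor block (1.92, adjusted p = 0.110). In tumours limma called 0 of 9 for the same contrast, against 1.13% of all genes, with 0 members at an unadjusted p under 0.05 and 0 by voom. There the differences were -1.30 for C4b, 0.46 for C3 and -0.21 for Cfb.

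C4b also changed side against monocytes, as it was higher in macrophages by 2.11 ± 0.56 in LP (adjusted p = 0.00685) and lower by 1.91 ± 0.56 in tumours (0.00986). The latter was lost without tumour monocyte library I (-1.56, adjusted p = 0.0742). In tumour neutrophils C4b was at 2.20, 2.70 and 0.276 RPKM, the last (library V) on 12 reads. It was lower than in monocytes by 2.11 ± 0.64 (adjusted p = 0.00807). That call was lost without neutrophil library V (-1.07, adjusted p = 0.0752) and with only the libraries compared (0.130), and the difference was -2.71 without library II. The tumour against LP difference of neutrophils was -1.19 ± 0.64 (adjusted p = 0.167).

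Fibroblasts also make C4b, and their genes differed between the tissues. All 10 fibroblast genes were in the data, of which 8 to 9 exceeded 3 reads in every library of each LP group and 1 to 3 in each tumour group. Their summed level was 26.9 RPKM in LP MHCIIlow library II, which held the most C4b, and 86.6 and 80.7 RPKM in libraries III and IV, which held less. LP monocytes and neutrophils had fibroblast sums of 17.7 to 50.3 RPKM with C4b of 1.83 to 4.0 RPKM, and tumour monocytes had sums of 0.868 to 1.03 RPKM with C4b of up to 8.32 RPKM. The part of fibroblast RNA in the tumour against LP difference was not tested.

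**Figure D4:**
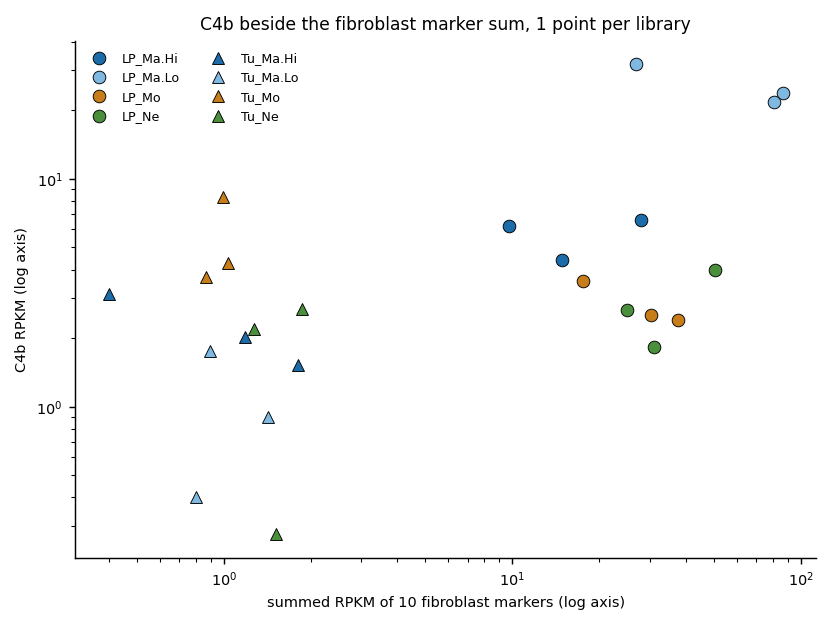
C4b level against the summed level of 10 fibroblast genes in the 24 libraries (RPKM, both axes log), by tissue and population. The 3 LP MHCIIlow macrophage libraries stand highest in C4b at 21.8 to 31.9 RPKM, and the LP monocyte and neutrophil libraries, with fibroblast sums of 17.7 to 50.3 RPKM, stand at 1.83 to 4.0 RPKM.

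C3ar1 is the receptor for C3a. It was at 299, 311 and 327 RPKM in LP MHCIIhi and 296, 257 and 269 RPKM in LP MHCIIlow macrophages. The tumour counterparts were at 177, 179 and 175 RPKM and at 136, 130 and 118 RPKM. Monocytes were at 101, 119 and 113 RPKM in LP and 65.9, 55.7 and 78.1 RPKM in tumours. Tumour libraries stood below LP libraries without overlap in both macrophage subsets and in monocytes.

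C3ar1 fell in tumour MHCIIlow macrophages by 1.10 ± 0.34 (log2, adjusted p = 0.0217), a call lost without LP library II or IV or tumour library V or VII (adjusted p = 0.0504 to 0.0681). In MHCIIhi macrophages the difference was -0.82 ± 0.34 (adjusted p = 0.0973) and in monocytes -0.75 ± 0.34 (0.192), both called by voom (0.000510 and 0.00658). Neutrophils held little, at 2.94, 5.98 and 10.2 RPKM in LP and 1.27, 3.08 and 3.76 RPKM in tumours, and their difference of -1.20 ± 0.34 (adjusted p = 0.00982) rested on overlapping libraries. It was lost without LP neutrophil library V (-0.78, adjusted p = 0.0760) or tumour neutrophil library I (-0.73, 0.0743). It was also not called by voom (0.0806) or with only the libraries compared (0.242).

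Between cell types C3ar1 was higher in macrophages than monocytes by 1.40 ± 0.29 in LP and 1.19 ± 0.29 in tumours (adjusted p = 0.00107 and 0.00292). In neutrophils it was lower than in monocytes by 4.30 ± 0.34 in LP and 4.75 ± 0.34 in tumours (adjusted p = 2.51e-09 and 4.37e-10). These stood among 6 of 9 members called between neutrophils and monocytes in LP, against 54.5% of all genes, and 7 of 9 in tumours, against 58.1%.

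C5ar1, the receptor for C5a and a strong attractant receptor of neutrophils, was the most abundant member in neutrophils. It was at 2131, 1930 and 1877 RPKM in LP neutrophils and at 2822, 3420 and 3024 RPKM in tumour neutrophils. Macrophages ran from 522 to 707 RPKM in LP and from 233 to 319 RPKM in tumours. Tumour neutrophils stood above LP neutrophils, whereas tumour macrophages stood below LP macrophages, in both cases without overlap in RPKM. For the neutrophils this rests on the library sizes given above, which differed between LP and tumour neutrophils relative to the reads.

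In the MHCIIhi libraries C5ar1 was at 566, 522 and 534 RPKM in LP and 319, 302 and 289 RPKM in tumours (-0.83 ± 0.15, adjusted p = 0.000398). In the MHCIIlow libraries it was at 707, 574 and 600 RPKM in LP and 297, 263 and 233 RPKM in tumours (-1.25 ± 0.15, adjusted p = 3.59e-06). Both macrophage subsets thus held less C5ar1 in tumours. Monocytes were at 443, 572 and 531 RPKM in LP and 515, 389 and 389 RPKM in tumours, which overlapped (-0.26 ± 0.15, adjusted p = 0.318).

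In neutrophils C5ar1 was higher in tumours by 0.64 ± 0.15 (adjusted p = 0.00250). Quantile normalisation reversed this direction (-0.40, adjusted p = 0.0347), the only 1 of 15 alternatives to do so. The highest value among them was 0.88. Apart from quantile and median scaling, the alternatives kept the library sizes behind the deposited values. These were 0.466 to 0.483 times the reads on genes in tumour neutrophils and 0.630 to 0.682 times in LP neutrophils. Scaling by the reads on genes was not among the alternatives. The median of all genes in this comparison moved up by 0.24 under quantile normalisation and under centring of the libraries on their median. The fall of C5ar1 under quantile normalisation thus ran against that shift. The tumour effect in macrophages was lower than in monocytes by 0.78 ± 0.18 (adjusted p = 0.00815), and that in neutrophils higher by 0.90 ± 0.21 (adjusted p = 0.0101), the 1 member called for this difference against 9.11% of all genes. Neither difference was called under quantile normalisation (-0.44, adjusted p = 0.0839, and 0.013, adjusted p = 0.981).

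Against monocytes C5ar1 was higher in neutrophils by 1.95 ± 0.15 in LP and 2.85 ± 0.15 in tumours (adjusted p = 1.64e-09 and 6.90e-12). In macrophages it was lower than in monocytes in tumours (-0.60 ± 0.13, adjusted p = 0.000963), though not under quantile normalisation (-0.11, adjusted p = 0.488), and in LP the difference was 0.18 ± 0.13 (adjusted p = 0.316).

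Of 50 other complement genes (starting components and proteases, terminal components, regulators and receptors), 34 had values and 26 passed the filter. Between tumour and LP, 10 of the 26 were called in MHCIIlow macrophages (2 higher and 8 lower in tumours) against 23.3% of all genes, 4 in MHCIIhi macrophages (all lower) against 19.5%, 3 in monocytes (1 higher) against 9.29% and 9 in neutrophils (2 higher) against 32.2%. The median difference of the 26 was -0.40 in MHCIIhi and -0.59 in MHCIIlow macrophages, 0.10 in monocytes and -0.97 in neutrophils, beside the all-gene medians given above.

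**Figure D5:**
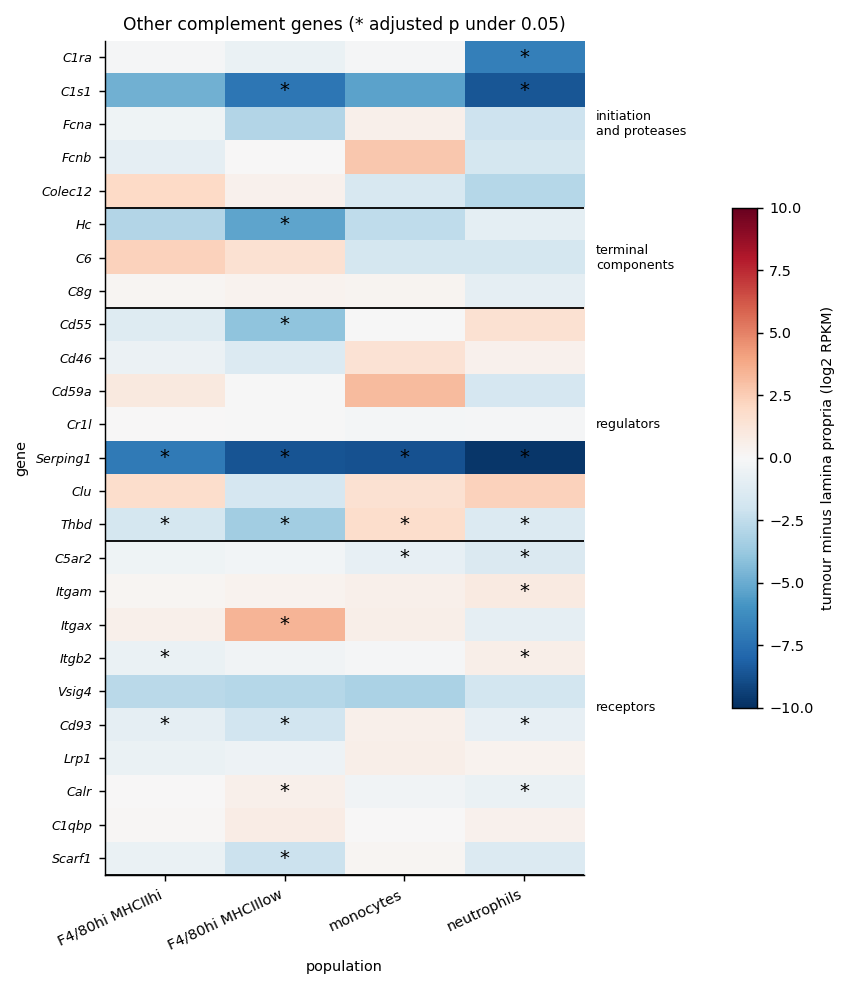
Tumour minus LP difference in log2 RPKM of other complement genes in the 4 populations, with asterisks at an adjusted p under 0.05 (limma). Serping1 is lower in tumours in all 4 populations, and Thbd is higher in monocytes and lower in the other 3.

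Serping1, the inhibitor of the C1 proteases, was the gene that fell in all 4 populations. It held 64 to 468 reads in each of the 12 LP libraries, while 9 of the 12 tumour libraries held none and the other 3 held 14, 22 and 2. With 3 reads per library as a floor, it was at least 75.3-fold lower in tumour monocytes and at least 24.5-fold lower in tumour neutrophils (adjusted p = 0.000865 and 6.47e-05). In MHCIIhi and MHCIIlow macrophages its mean level was 2.38 and 6.46 RPKM in LP against 0.0770 and 0.0760 RPKM in tumours (adjusted p = 0.00216 and 0.000260).

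The protease genes C1s1 and C1ra and the terminal component Hc (C5) were also called lower in tumours, but not in all populations. C1s1 was called in neutrophils and MHCIIlow macrophages, C1ra in neutrophils and Hc in MHCIIlow macrophages. C1s1 was at 0 reads in tumour neutrophils and 27 to 100 reads in LP neutrophils (adjusted p = 0.00137), and at 0 to 9 against 89 to 138 reads in MHCIIlow macrophages (0.00675). C1ra held 0 to 8 reads in tumour neutrophils and 44 to 150 in LP neutrophils (adjusted p = 3.06e-05, and 0.0601 with only the libraries compared). In the other populations the C1ra levels of tumour and LP overlapped. MHCIIhi macrophages were at 4.93 to 6.20 RPKM in LP and 4.59 to 5.95 RPKM in tumours. Monocytes were at 1.51 to 1.89 RPKM and 1.38 to 1.70 RPKM. Hc held 0 to 3 reads in tumour MHCIIlow macrophages and 62, 17 and 5 reads in LP libraries II, III and IV (adjusted p = 0.00354), a call lost with log2(RPKM + 1) (0.388) and log2(RPKM + 0.1) (0.0665). Serping1, C1s1 and C1ra are also made by fibroblasts, whose summed genes differ between the tissues as given above, and the part of fibroblast RNA was not tested.

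Thrombomodulin (Thbd), a surface regulator of coagulation and complement, moved in opposite directions. It rose in tumour monocytes, from a mean of 32.0 RPKM to 111.6 RPKM (1.75 ± 0.41, adjusted p = 0.00916), a call lost without tumour monocyte library I (adjusted p = 0.0576). It fell in MHCIIhi macrophages, from 14.6 to 4.32 RPKM (-1.79 ± 0.41, adjusted p = 0.00368). The tumour effect differed between macrophages and monocytes by -4.39 ± 0.50 (adjusted p = 1.25e-05) and between neutrophils and monocytes by -3.11 ± 0.58 (0.00230). Cd93, a surface lectin once described as a C1q receptor, fell in MHCIIhi macrophages (-0.88 ± 0.23, adjusted p = 0.00813), and its effect in macrophages was lower than in monocytes by 1.91 ± 0.28 (0.000138).

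In MHCIIlow macrophages further changes were Itgax, Cd55, Thbd and Cd93, which were named after their values were seen. Itgax, the alpha chain of complement receptor 4 (CD11c), was at a mean of 11.6 RPKM in LP and 96.3 RPKM in tumours (3.37, adjusted p = 1.85e-06). The surface inhibitor Cd55 fell from 2.94 to 0.227 RPKM. Thbd fell by 3.48 and Cd93 by 1.92 on the log2 scale. The effect in MHCIIlow differed from that in MHCIIhi macrophages for Itgax (2.84 ± 0.53, adjusted p = 0.0113, and 0.105 with only the libraries compared).

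The same Itgax gap stood between the LP macrophages, as MHCIIlow cells held less Itgax than MHCIIhi cells (-3.44 ± 0.38, adjusted p = 1.39e-05) and more Cd55 (3.06 ± 0.80, 0.0224) and Thbd (1.73 ± 0.41, 0.0125). The Cd55 call was lost with the fixed donor block (2.74, adjusted p = 0.155), with only the libraries compared (0.0721) and without LP MHCIIhi library V (2.29, 0.125) or LP MHCIIlow library II or IV (0.0728 and 0.0755). The Thbd call was lost with the fixed donor block (1.12, adjusted p = 0.0550), with only the libraries compared (0.162) and without LP MHCIIlow library II (1.07, 0.0698) or LP MHCIIhi library IV (0.0518). These were 3 of 4 of the 26 genes called in LP, against 7.7% of all genes. In tumours 0 of the 26 were called by limma for the same contrast, against 1.13% of all genes, with 3 at an unadjusted p under 0.05.

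In neutrophils the second C5a receptor C5ar2 fell from 38.1 to 14.6 RPKM in tumours (-1.45, adjusted p = 0.000115), and the complement receptor 3 chains Itgam and Itgb2 rose by 0.87 and 0.55 (adjusted p = 0.00245 and 0.0136), all 3 named after their values were seen. Under quantile normalisation neither integrin chain was called (Itgam 0.50, adjusted p = 0.0851, and Itgb2 0.13, 0.612), and the Itgb2 call was also lost with only the libraries compared (0.0589) and without LP neutrophil library V (0.41, 0.0807). Itgb2 was the most abundant of the wider genes, at a mean of 493 RPKM over all groups. In tumour monocytes C5ar2 was at 7.84 RPKM against 13.3 RPKM in LP (-0.79 ± 0.24, adjusted p = 0.0419), a call lost on leaving out any 1 of the 6 libraries (0.0536 to 0.190), with no filter (0.0520), with median centring (0.0745) and with only the libraries compared (0.0671).

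Between cell types the terminal component C6 was a macrophage transcript, on 124 to 918 reads in LP macrophages and 489 to 2703 in tumour macrophages against 0 to 4 in monocytes (adjusted p = 9.04e-05 in LP and 3.00e-07 in tumours). The membrane inhibitor Cd59a held 18 to 126 reads in LP macrophages and 0 in LP monocytes. Ficolin B (Fcnb), a lectin pathway starter, held at most 2 reads in any macrophage library and 10 to 479 in monocytes, and Hc was lower in tumour macrophages (0 to 3 reads) than in tumour monocytes (4 to 19), though not with log2(RPKM + 1) or log2(RPKM + 0.1) (adjusted p = 0.524 and 0.105). Of the 26 genes, 11 were called between macrophages and monocytes in LP, against 29.5% of all genes, and 16 in tumours, against 38.3%.

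Neutrophils held less Lrp1, a scavenger receptor that binds C1q, than monocytes in LP (-3.18 ± 0.28, adjusted p = 9.75e-09), and more of the cofactor Cd46, on 45 to 75 against 2 to 12 reads, a call lost without LP monocyte library IV (3.48, adjusted p = 0.0787). In tumours they held less C1ra and less Fcna, on 0 to 9 reads against 9 to 56 in monocytes (adjusted p = 0.0254). The libraries of Fcna overlapped, and its call was lost with voom (0.330), either pseudocount (0.319 and 0.0651), quantile normalisation (0.102), only the libraries compared (0.157) and without tumour monocyte library I or II or tumour neutrophil library I or V (0.0551 to 0.132). The tumour effect in neutrophils was lower than in monocytes for C1ra (adjusted p = 0.00508) and Fcnb (0.0435), both on low reads. With only the libraries compared neither was called (0.0659 and 0.0619). The Fcnb call was also lost with quantile normalisation (0.0903), median centring (0.0563) and no filter (0.0684), and without LP monocyte library III, LP neutrophil library III or IV, tumour neutrophil library II or V or any tumour monocyte library (0.0546 to 0.119). Of the 26 genes, 12 were called between neutrophils and monocytes in LP, against 54.5% of all genes, and 17 in tumours, against 58.1%.

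The genes whose log2 RPKM most resembled each member over the 24 libraries followed the same division by cell type. The libraries share 8 groups, so the correlations describe the groups and carry no test. For the mean of the C1q chains they were Mfsd12, Hexa and Selenop (Pearson's r of 0.98, 0.98 and 0.97), and 80 genes exceeded 0.9. C3 was most like Tarm1, Mir7678 and Gsr (0.97 each), with 75 genes over 0.9. C3ar1 was most like Scpep1, Kpna3 and Cmtm3 (0.99, 0.98 and 0.98, 290 genes over 0.9), and C5ar1 most like Litaf, ENSMUSG00000089672 and Suco (0.98 each, 329 genes over 0.9).

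The remaining members had few close neighbours. Cfb was most like Syngr2, Adgre4 and Snd1 (0.90, 0.89 and 0.86), with 1 gene over 0.9. C4b was most like Trim30c, Pik3r5 and Eps8 (0.80, 0.80 and 0.79) and Cfp most like Mmp9, Csf1 and 1700037H04Rik (0.81, 0.80 and 0.79), each with 0 genes over 0.9. The C4b and Cfp patterns thus had no close match among the other genes of this abundance.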

How the data were processed

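RNA of 8 groups of 3 libraries was analysed as given. The authors used STAR 2.3 with the GRCm38/mm10 genome and featureCounts 1.5 with GENCODE genes, dropped genes averaging under 10 reads in every population, and deposited log2 RPKM values. Their prior of 0.25 reads was read from the values. The libraries had no molecular identifiers. Whole reads were recovered for 100% of the 415224 values (tolerance 0.01 reads) and served for depth, floors of 3 reads and a voom alternative. No column was left unused. Symbols were matched on the Ensembl identifier, and coordinates came from GENCODE M21.

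The deposited log2 RPKM entered 1 limma model (version 3.58.1, R 4.3.3, eBayes with trend) with 8 group means and all 24 libraries. It covered the 12878 genes whose mean reached 1 RPKM in some group. Benjamini-Hochberg adjustment ran over all genes tested in each of 13 comparisons, and a gene under 0.05 is called. An exact permutation test of 3 against 3 libraries cannot go below 0.1. The model was checked on simulated data. Tables used python 3.11.15, numpy 2.4.6 and pandas 2.3.3, and figures matplotlib 3.10.9.

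The members and lists were chosen with earlier results of these data known. Beside the members, the text names for each comparison up to 3 called genes of the wider list with the largest difference, the most abundant of that list, and the 3 genes most correlated with each member among genes averaging 10 RPKM or more in some group; other names are said to be chosen later. 1 gene of the wider list is counted but not reported here. Lists of markers of fibroblasts, epithelial cells, B and plasma cells, dendritic cells, neutrophils and macrophages were summed as RPKM. The labels give each library a donor number, 4 numbers per tissue, and no label says what a number shares beyond the donor, so the donor block was kept as an alternative; over 29 pairs of the same donor the deviations from group means correlated at -0.07 to 0.25 (median 0.02). The tested alternatives were pseudocounts of 1 and 0.1, a filter at 5 RPKM and none, quantile and median scaling, the donor block, voom, only the libraries compared, and leaving out each library.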

Additional observations from a re-analysis of the deposited data

Results flagged for a closer look

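For 3 genes the tumour against LP effect differed between cell types by a test of the difference itself. The C3 effect in MHCIIlow macrophages exceeded that in MHCIIhi macrophages by 2.10 (log2, adjusted p = 0.0199). The C4b effect in macrophages was -4.02 relative to that in monocytes (adjusted p = 0.00219). The C5ar1 effect was -0.78 in macrophages relative to monocytes (adjusted p = 0.00815) and 0.90 in neutrophils relative to monocytes (adjusted p = 0.0101). The monocyte libraries enter all 3 of the last contrasts, so these share their reference.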

How the results depend on the processing

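Of 2006 values of single genes under the alternatives, 1866 kept their direction and their side of the threshold, 92 lost a call, 39 gained one and 9 changed direction. Quantile normalisation turned C3 in neutrophils against monocytes to -0.39 in LP and -0.26 in tumours, Cfp to -0.56 and -0.65, and C5ar1 and Cfp in tumour against LP neutrophils to -0.40 and -0.073. Leaving out 1 library, the C1qb difference in MHCIIhi macrophages ran from -0.17 to 0.33 and that of Cfb between tumour macrophage subsets from -0.39 to 0.080. Members called between tumour and LP numbered, in MHCIIhi macrophages, 3 with log2(RPKM + 1), 4 with voom and 4 with only the libraries compared, in MHCIIlow macrophages 7 with log2(RPKM + 1), 7 with voom and 3 with only the libraries compared, in monocytes 1 with quantile normalisation, 1 with voom and 1 with only the libraries compared, and in neutrophils 3 with median centring (C3 gained, adjusted p = 0.0317), 1 with voom and 1 with only the libraries compared. That last setting lost C3 and Cfb in MHCIIlow macrophages (0.0987 and 0.116) and between LP macrophage subsets (0.125 and 0.134). Between LP macrophage subsets 1 was called with the fixed donor block and 1 with only the libraries compared. For the difference between the macrophage effects 2 were called with either pseudocount, the filter at 5 RPKM, quantile normalisation, the random donor block or voom, and 0 with only the libraries compared. For macrophages minus monocytes quantile normalisation called 1, and for neutrophils minus monocytes 0. Leaving out 1 library gave 3 to 5 members in MHCIIlow macrophages, 1 to 2 in neutrophils, 1 to 2 between LP macrophage subsets and 0 to 2 for the difference between the macrophage effects. The donor block, paired by the label's donor number, changed no other member's call than those given in the report, which include gains for C1qb and Cfp. The cause of these changes was not tested, except that fewer libraries entered where only those compared were used. Cfb in neutrophils and LP MHCIIlow macrophages rests on 3 to 33 reads, which limits its precision.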
